A study of Mus musculus with 9 samples.

Results

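Macrophages of the colon wall can carry several activation programs, and 10 genes that mark them were followed in colon RNA: Gpnmb, Retnla, Mrc1, Cd163, Folr2, Trem2, Arg1, Chil3, Cd36 and Lyve1. The genes were listed by symbol and all 10 were present among the 21498 gene symbols of the data. Gpnmb and Retnla were listed because of their values in these samples, so their levels are given as a description without a test, and calls are counted over the other 8 genes. These 8 were also chosen with earlier results of these data known, so their calls are not independent of that choice. All 10 passed the filter on low values, at least 0.1 FPKM (fragments relative to the length of the transcript and the depth of the library) in at least 3 of the 9 samples.

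RNA came from the colorectum of 9 male ICR mice, an outbred strain, 3 in each group, randomized at 5 weeks of age. Control mice had neither carcinogen, colitis inducer nor antibody. The other 6 mice were given 1 intraperitoneal dose of 10 mg/kg azoxymethane (AOM), a colon carcinogen, and then 3 cycles of dextran sulfate sodium (DSS), a colitis inducer that damages the epithelium, in the water, 7 days at 2% in the first cycle and 5 days at 1.5% in the later ones. During the DSS cycles they received 1.5 mg/kg of a control IgG Ab (the AOM/DSS + IgG Ab group, called IgG Ab below) or of a rabbit polyclonal Ab against S100a9, a calcium-binding protein of neutrophils and monocytes (the AOM/DSS + anti-S100a9 Ab group, called anti-S100a9 Ab below), intravenously every other day. Tissue of all groups was taken at the end of week 18, a time that for Control comes from the series' protocol and not from a sample label. It is labelled colorectal adenocarcinoma in both AOM/DSS groups, while Control tissue is labelled normal mucosa. The study's own text calls the IgG Ab tissue adenocarcinoma but the anti-S100a9 Ab tissue mucosa, against the label of the latter. Tissue kind therefore differed between Control and IgG Ab together with treatment, and it may also have differed between anti-S100a9 Ab and IgG Ab, so that in every comparison the parts of tumor content and of treatment cannot be told apart. The comparisons ask how AOM/DSS with control Ab differed from normal tissue, how anti-S100a9 Ab differed from IgG Ab, and what distance to Control was left with anti-S100a9 Ab.

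Tissue macrophages take up dying cells, lipid and matrix, and their receptors and enzymes change with the signals around them. Interleukin-4 and interleukin-13, acting through the Il4ra receptor chain and the transcription factor Stat6, raise Retnla, Arg1, Chil3 and Mrc1 in mouse macrophages, a state known as alternative activation. Folr2, Lyve1, Mrc1 and Cd163 mark macrophages that reside in tissue, and Gpnmb, Trem2 and Cd36 mark macrophages loaded with lipid or lysosomal cargo. Several of these genes are also expressed elsewhere. Lyve1 also marks lymphatic endothelium, Cd36 is high in adipocytes and capillary endothelium, Gpnmb is expressed by melanocytes and osteoclasts, and Chil3 is stored by neutrophils.

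Macrophage RNA was present in every sample. All 12 general macrophage markers, among them Adgre1 (F4/80), Csf1r, Cd68 and the complement genes C1qa to C1qc, were above 0 in each of the 9 samples, and their summed level was 750 to 1656 FPKM in Control, 737 to 1305 in IgG Ab and 1149 to 1442 in anti-S100a9 Ab. Lyz2 weighed most in these sums, with means of 592 FPKM in Control, 433 in IgG Ab and 676 in anti-S100a9 Ab. Epcam, an epithelial surface protein, ranged from 584 to 890 FPKM over all samples, and the summed smooth muscle markers from 518 to 4074 FPKM, with 1801 to 2857 in Control, so the pieces labelled mucosa held muscle RNA as well. IgG Ab replicate 1 stood apart, with the lowest mean log2 level of the macrophage markers (3.97 against 4.35 to 5.07 in the other samples) and the lowest smooth muscle sum. FPKM totals per sample were 308377 to 408811. From the smallest values of each file, 1 fragment was worth 0.895 to 1.18 times as much as in Control replicate 1, so relative depth was similar, but the number of fragments is unknown and no counting error can be given.

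Gpnmb encodes a transmembrane glycoprotein that macrophages put on lysosomes and the cell surface when lysosomes are stressed. Its level was 4.32, 3.10 and 5.87 FPKM in Control replicates 1 to 3, 10.0, 8.61 and 8.55 FPKM in IgG Ab, and 31.6, 44.0 and 55.3 FPKM in anti-S100a9 Ab. The 3 groups formed 3 steps with no overlap between neighbours, lowest in Control and highest with anti-S100a9 Ab. Of all genes tested, 31.0% had no overlap in IgG Ab vs Control, 46.9% in anti-S100a9 Ab vs IgG Ab and 31.0% in anti-S100a9 Ab vs Control. The log2 fold change of Gpnmb was 1.06 in IgG Ab vs Control (SE 0.26), 2.22 in anti-S100a9 Ab vs IgG Ab (SE 0.26) and 3.28 in anti-S100a9 Ab vs Control (SE 0.26), which is 9.71-fold. Gpnmb had the highest listed FPKM of the 10 genes with anti-S100a9 Ab, with 37.6% to 47.6% of their summed FPKM, against 2.94% to 6.59% in Control. FPKM is scaled by transcript length, but some genes that nearly every cell expresses are listed near 0 in these files, so the order of levels between genes is uncertain.

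Retnla encodes a small secreted protein (RELM-alpha, Fizz1) made by alternatively activated macrophages, and also by epithelial and adipose tissue. It ran in another order than Gpnmb. Retnla was at 20.2, 47.9 and 53.0 FPKM in Control, where it had the highest listed FPKM of the 10 genes, at 0.203 and 2.49 FPKM in IgG Ab replicates 1 and 2 and listed at 0 in replicate 3, and at 8.08, 19.9 and 11.2 FPKM in anti-S100a9 Ab. The groups did not overlap, to be read against the shares of all genes given for Gpnmb. IgG Ab was lowest, anti-S100a9 Ab lay between, and the highest anti-S100a9 Ab sample was just under the lowest Control sample. On the log2(FPKM + 0.1) scale the difference was -6.44 in IgG Ab vs Control (SE 1.01), 4.84 in anti-S100a9 Ab vs IgG Ab (SE 1.01) and -1.60 in anti-S100a9 Ab vs Control (SE 1.01). The first difference moved to -7.73 with a pseudocount of 0.01 and to -4.57 with a pseudocount of 1, and the second to 6.13 and 3.04. Without IgG Ab replicate 2, the only one of its group above 1 FPKM, they were -7.74 and 6.14. A value of 0 is reported here only as listed, because Gapdh, Ppia and Rps18, which nearly every cell expresses, reached only 0.755, 0.974 and 0.391 FPKM in the sample where each was highest.

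**Figure D1:**
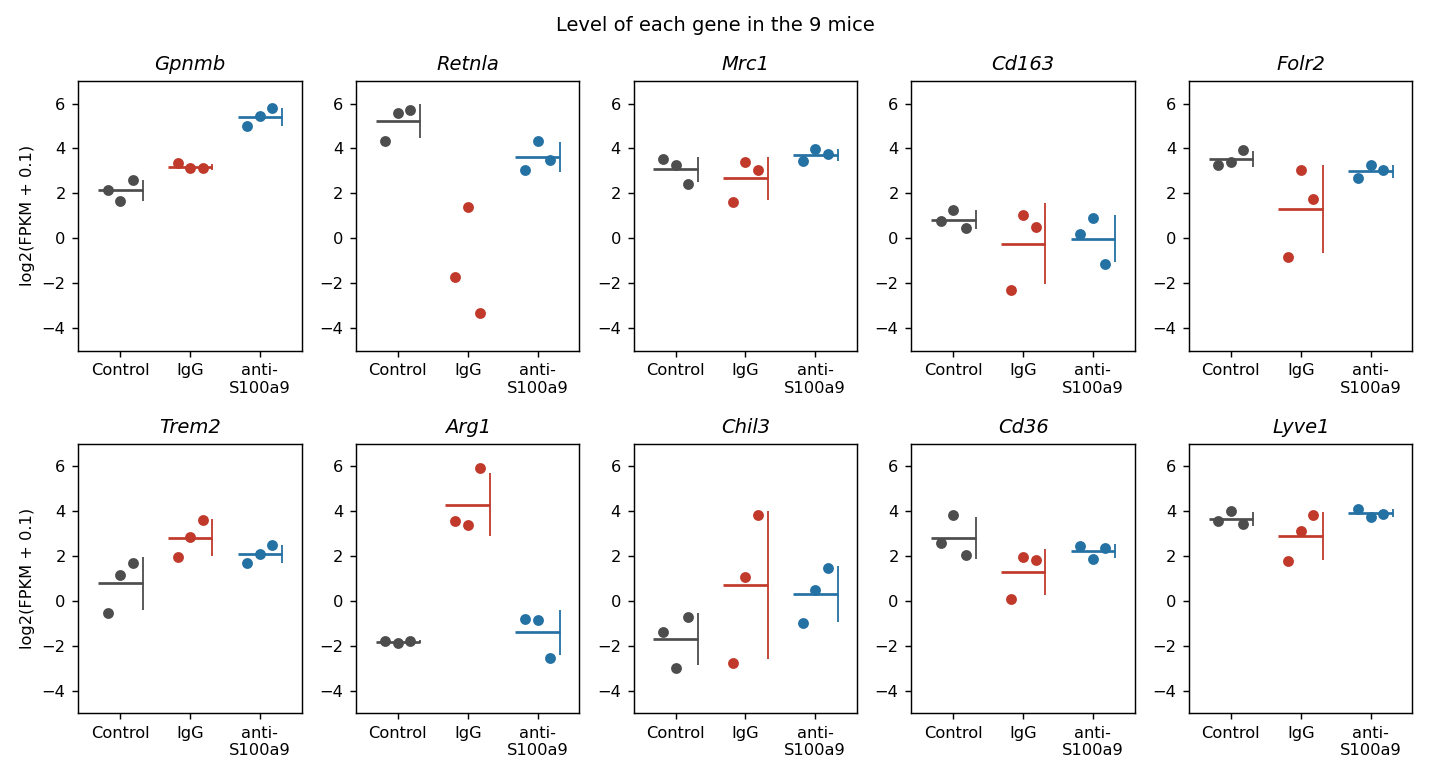
Level of each of the 10 genes in the 9 mice, as log2(FPKM + 0.1); points are single mice, horizontal lines are group means and vertical lines are ± 1 SD (n = 3), both left out for Retnla in IgG Ab, where 1 mouse is listed at 0. Gpnmb steps upward from Control to anti-S100a9 Ab, Retnla is lowest with IgG Ab, and Arg1 is high only in the IgG Ab group.

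The promoters of Gpnmb and Retnla are shown because the values of these genes led to the choice of the list. Gpnmb lies at chr6:49036546-49070929 on the + strand and Retnla at chr16:48842551-48844461 on the + strand (GENCODE M21, GRCm38). The sequences below run from 250 bases before to 50 bases after the start site in RefSeq (GRCm38.p6, + strand), chr6:49036268-49036567 for Gpnmb and chr16:48842359-48842658 for Retnla, with matches to the searched motifs in capitals.
Gpnmb: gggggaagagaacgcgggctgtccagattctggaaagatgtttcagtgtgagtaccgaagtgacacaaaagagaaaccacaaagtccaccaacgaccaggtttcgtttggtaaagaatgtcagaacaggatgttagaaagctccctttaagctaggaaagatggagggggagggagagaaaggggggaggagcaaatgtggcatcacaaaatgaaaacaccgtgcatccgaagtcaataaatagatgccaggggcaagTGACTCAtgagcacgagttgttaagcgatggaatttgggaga
Retnla: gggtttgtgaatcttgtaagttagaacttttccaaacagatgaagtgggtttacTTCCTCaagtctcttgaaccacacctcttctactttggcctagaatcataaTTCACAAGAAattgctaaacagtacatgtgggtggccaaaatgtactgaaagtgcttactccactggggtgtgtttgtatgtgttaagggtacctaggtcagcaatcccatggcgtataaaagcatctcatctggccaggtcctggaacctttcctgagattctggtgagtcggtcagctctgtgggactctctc
Both strands were searched for the MiT/TFE E-box CACGTG, the M-box TCATGTG, the AP-1 site TGANTCA, the PU.1 core GAGGAA and a STAT6-type site, TTC and GAA spaced by any 4 bases. The Gpnmb window held 1 match, an AP-1 site 8 to 14 bases after the start base, and the Retnla window held a STAT6-type match from position -145 to -136 and a PU.1 core on the reverse strand from -196 to -191, counted from the start base. Of 32851 promoters of the same length, 7.15% held the E-box, 3.77% the M-box, 7.81% the AP-1 site, 28.3% the PU.1 core and 6.95% the STAT6-type site. Promoters were given for 8 of the 10 genes, all but Arg1 and Lyve1. Among the other 6, Trem2 and 1 Folr2 promoter held an AP-1 match, Mrc1 and Trem2 held PU.1 cores and Cd36 held a STAT6-type match. A match describes letters in the window and not binding.

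Among the 8 tested genes, IgG Ab vs Control called 1, Arg1, which rose. None of the 8 fell by the adjusted test (limma, adjusted p under 0.05). Of all 15278 genes tested, 8.18% rose and 3.01% fell in this comparison. With the threshold used in the study (an unadjusted p below 0.05 with a change above 2-fold), 2 of 8 were higher (Arg1 and Trem2) and 2 lower (Folr2 and Cd36), where 13.6% of all genes passed in either direction. The same 4 genes had groups that did not overlap, as did 31.0% of all genes. The median log2 fold change was -0.57 over the 8 genes and 0.09 over all genes.

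Arg1, the cytosolic arginase that turns arginine into ornithine and urea, had the widest range of the 8. It was at 0.192, 0.172 and 0.195 FPKM in Control, at 11.9, 10.3 and 59.5 FPKM in IgG Ab, and at 0.475, 0.461 and 0.0701 FPKM in anti-S100a9 Ab. The 3 IgG Ab values exceeded those of the other 6 mice, and the Control and anti-S100a9 Ab ranges overlapped. Arg1 rose in IgG Ab vs Control with a log2 fold change of 6.09 (SE 0.69, adjusted p = 0.00174), 68.3-fold, and was lower in anti-S100a9 Ab vs IgG Ab with a log2 fold change of -5.68 (SE 0.69, adjusted p = 0.00371), 51.4-fold. The study itself lists Arg1 among the genes raised by AOM/DSS and lowered by anti-S100a9 Ab in these data. Both limma calls of Arg1 are therefore no independent support for that result. In anti-S100a9 Ab vs Control the difference was 0.41 (95% confidence interval -1.16 to 1.98, adjusted p = 0.785). Over the alternatives the adjusted p of Arg1 ran from 0.00174 to 0.0106 in the first comparison and from 0.00354 to 0.0187 in the second. With the largest pseudocount its log2 fold changes came down to 4.12 and -3.97. Summed neutrophil markers were at 129 to 620 FPKM in IgG Ab against 90.8 to 120 in Control and 101 to 180 with anti-S100a9 Ab, with overlap between the AOM/DSS groups. The members of this sum differed in direction. S100a8 and S100a9 had means of 139 and 168 FPKM in IgG Ab against 0.607 and 0.602 FPKM in Control, whereas Ly6g, which made up most of the sum in Control and with anti-S100a9 Ab, had a mean of 104 FPKM in Control, 72.4 FPKM in IgG Ab and 124 FPKM with anti-S100a9 Ab and was not called. The part of neutrophil RNA in the Arg1 difference was not tested. In bulk RNA, fewer cells of a type and less RNA per cell cannot be told apart.

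Chil3 encodes the secreted chitinase-like lectin Ym1. It was listed at 0.282, 0.0272 and 0.516 FPKM in Control, 0.0502, 1.97 and 14.1 FPKM in IgG Ab and 0.404, 1.29 and 2.68 FPKM in anti-S100a9 Ab. The IgG Ab samples overlapped both other groups, and no comparison passed the test (IgG Ab vs Control 2.40, SE 1.45, adjusted p = 0.30). Its values are also uncertain because Chil4 is nearly identical in sequence and reads could be split between them. Chil4 was at 0.0733, 1.31 and 0.0728 FPKM in IgG Ab and listed at 0 in the other 6 samples.

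Trem2, a lipid-sensing receptor that signals through Tyrobp, was at 0.592, 2.16 and 3.17 FPKM in Control, 3.84, 7.14 and 12.1 FPKM in IgG Ab and 3.15, 4.13 and 5.5 FPKM in anti-S100a9 Ab. The lowest IgG Ab value exceeded the highest Control value. The log2 fold change was 2.03 (SE 0.59, 4.08-fold), which missed the threshold at an adjusted p of 0.0597, with a range of 0.0115 to 0.141 over the alternatives. The call was made with the replicate number as a block (adjusted p = 0.0115) and without Control replicate 3 (adjusted p = 0.0429). The difference between the AOM/DSS groups was -0.73 (SE 0.59, adjusted p = 0.382), with overlapping ranges. Trem2 and Gpnmb, both markers of lipid-loaded macrophages, had their highest mean in different AOM/DSS groups, Trem2 with IgG Ab and Gpnmb with anti-S100a9 Ab.

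Cd36, a scavenger receptor for fatty acids and oxidized lipoproteins, was at 5.87, 14.2 and 3.98 FPKM in Control, 0.968, 3.74 and 3.44 FPKM in IgG Ab and 5.33, 3.54 and 4.96 FPKM in anti-S100a9 Ab. The IgG Ab samples all lay below Control, but the test was not passed (log2 fold change -1.53, SE 0.57, adjusted p = 0.115). The highest Control value belonged to replicate 2, which also had the most adipocyte RNA. Adipoq, the adipocyte hormone adiponectin, was at 4.26, 16.9 and 2.99 FPKM in Control, at 1.23 FPKM in IgG Ab replicate 2, at 0.0474 FPKM in anti-S100a9 Ab replicate 1 and listed at 0 in the other 4 samples. Summed over the list of 10 adipocyte markers, levels were 81.9 to 233 FPKM in Control, 66.2 to 78.8 in IgG Ab and 37.3 to 44.2 in anti-S100a9 Ab. Pnpla2 and Gpd1, lipid enzymes that other cells express too, made up most of the sums in the AOM/DSS groups. The mean log2 level of the same list was 1.27 to 2.94 in Control and overlapped between IgG Ab (-0.92 to 0.64) and anti-S100a9 Ab (-0.93 to -0.46). Over all genes, 3.01% fell and 8.18% rose in IgG Ab vs Control. Of the 9 adipocyte markers tested, 6 fell in this comparison, led by Cfd (-6.43, adjusted p = 0.0415) and Adipoq (-4.69, adjusted p = 0.0220), and 1, Gpd1, rose. That count of 7 was also 7 without IgG Ab replicate 2, but between 0 and 3 without any other 1 sample and 0 when the third group was left out of the fit. The part of adipocyte RNA in the Cd36 and Retnla values was not tested.

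**Figure D2:**
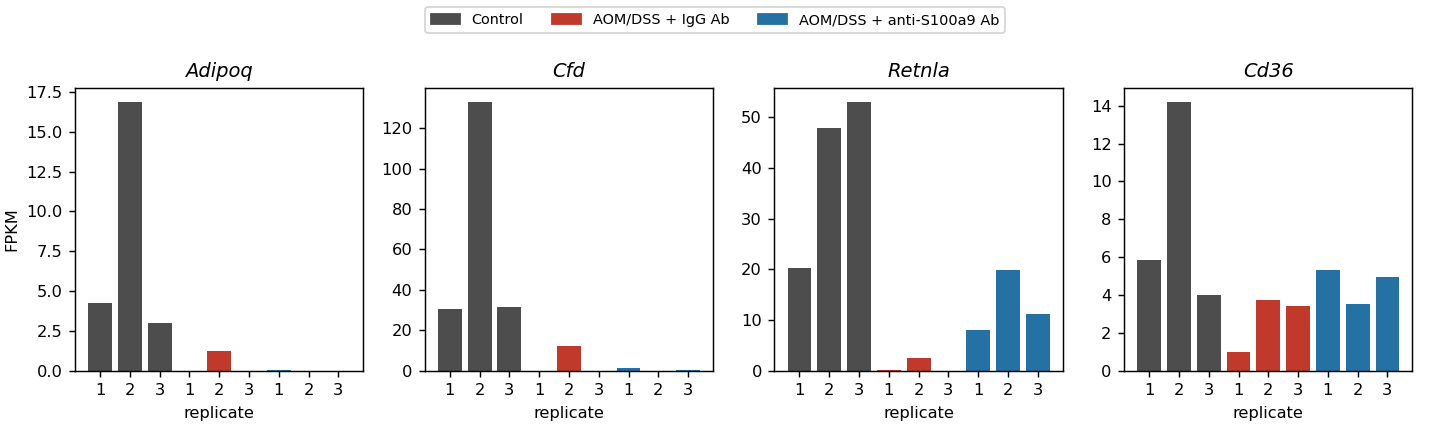
FPKM of the adipocyte genes Adipoq and Cfd beside Retnla and Cd36; each bar is 1 mouse (replicates 1 to 3 of each group), and each panel has its own axis from 0. Adipoq and Cfd peak in Control replicate 2 and are near 0 in most AOM/DSS samples. Retnla is lowest in IgG Ab.

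The genes of resident macrophages had no call. Folr2, the beta form of the folate receptor, was at 9.47, 10.5 and 15.1 FPKM in Control, 0.463, 8.01 and 3.25 FPKM in IgG Ab and 6.29, 9.48 and 8.02 FPKM in anti-S100a9 Ab. All IgG Ab samples were below Control, by a log2 fold change of -2.22 (SE 0.79, adjusted p = 0.103), while those with anti-S100a9 Ab overlapped both groups. Folr2 passed the test without IgG Ab replicate 2, with -3.07 (adjusted p = 0.0192, range over the alternatives 0.0192 to 0.199) against Control and 2.53 for anti-S100a9 Ab vs IgG Ab (adjusted p = 0.0289, range 0.0289 to 0.291). With all samples the second difference was 1.67 (SE 0.79, adjusted p = 0.150). In the annotation, an antisense gene and a pseudogene lie opposite Folr2, and whether reads were counted by strand is not given in the sources used here.

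Mrc1, the mannose receptor CD206, was at 11.5, 9.40 and 5.32 FPKM in Control, 2.93, 10.5 and 8.16 FPKM in IgG Ab and 10.6, 15.6 and 13.3 FPKM in anti-S100a9 Ab. The anti-S100a9 Ab samples were above all IgG Ab samples by a narrow margin, with a log2 fold change of 1.03 (SE 0.46, adjusted p = 0.131). Lyve1, a hyaluronan receptor, ranged from 10.6 to 15.8 FPKM in Control, 3.29 to 14.2 FPKM in IgG Ab and 13.2 to 17.0 FPKM in anti-S100a9 Ab. Its difference between the AOM/DSS groups was 1.00 (SE 0.44, adjusted p = 0.129) and passed the test without IgG Ab replicate 3 (1.47, adjusted p = 0.0477, range over the alternatives 0.0477 to 0.274). Cd163, the scavenger receptor for hemoglobin bound to haptoglobin, was low throughout, from 0.105 to 2.31 FPKM, and its 3 groups overlapped. IgG Ab replicate 1, the sample with the lowest macrophage markers, had the lowest value of its group for Mrc1, Cd163, Folr2, Lyve1 and Cd36. Without it, the Mrc1 difference to Control was 0.15 in place of -0.39.

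In anti-S100a9 Ab vs IgG Ab, 1 of the 8 tested genes fell (Arg1) and none rose, where 6.72% of all genes rose and 14.4% fell. By the study's threshold Arg1 was also the only one, against 16.0% of all genes. The groups did not overlap for Mrc1, which was higher, and Arg1, which was lower, and for 46.9% of all genes. The median log2 fold change was 0.58 over the 8 genes and -0.06 over all genes. In anti-S100a9 Ab vs Control, limma called none of the 8 genes, none had an unadjusted p under 0.05 or passed the study's threshold, and none had groups that did not overlap. In that comparison 0.00655% of all genes rose, 0.00655% fell, 3.15% passed the study's threshold and 31.0% had groups that did not overlap. The median was 0.33 over the 8 genes and 0.04 over all genes, and the intervals were wide, for example -1.89 to 0.69 for Cd36 and -0.04 to 2.65 for Trem2. The comparisons share samples and are not independent of each other.

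**Figure D3:**
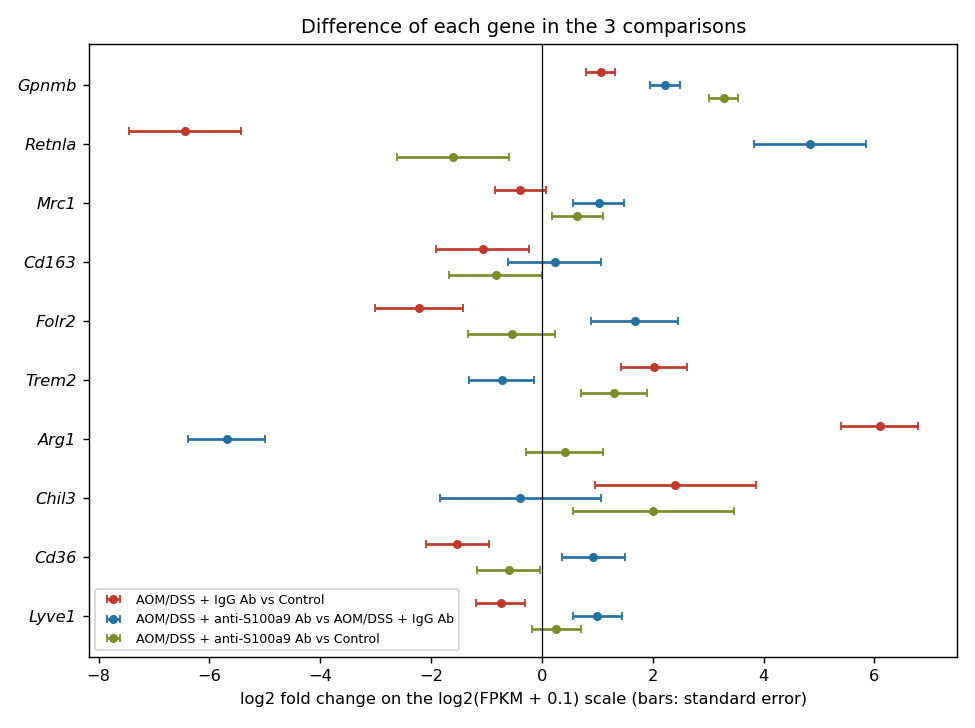
Log2 fold change of each gene on the log2(FPKM + 0.1) scale in the 3 comparisons; points are fitted values and bars are ± 1 standard error. Retnla and Arg1 lie farthest from 0 in both comparisons with the IgG Ab group, on opposite sides, and Gpnmb is above 0 in all 3.

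Levels were also set against the general macrophage markers of the same sample, as the log2 level of each gene minus the mean log2 level of the 12 markers. Gpnmb was at -2.68, -2.67 and -2.21 in Control, -0.63, -1.90 and -1.77 in IgG Ab and 0.43, 0.63 and 0.72 in anti-S100a9 Ab. Its 3 groups stayed in steps without overlap on this scale as well, 3.11 apart between anti-S100a9 Ab and Control. Retnla was at -0.47, 1.24 and 0.95 in Control, -5.69, -3.65 and -8.21 in IgG Ab and -1.52, -0.51 and -1.57 in anti-S100a9 Ab. Trem2 did not overlap between any 2 groups on this scale, with differences of 2.06, -0.92 and 1.14 in the 3 comparisons in the order above. Folr2 was lower than Control in both AOM/DSS groups without overlap, with differences of -2.20 and -0.71. For anti-S100a9 Ab the margin was very narrow, with a highest value of -1.57 against -1.56 as the lowest in Control. How many of all genes lack overlap on this scale was not computed. Without the markers the shares were 31.0%, 46.9% and 31.0% in the 3 comparisons, so lack of overlap alone was common. With Adgre1 alone as the reference, the Gpnmb difference became 1.82 in IgG Ab vs Control and 1.17 in anti-S100a9 Ab vs IgG Ab, and those of Mrc1, Cd36 and Lyve1 in the latter became -0.02, -0.13 and -0.05, against 0.84, 0.74 and 0.81 with the 12 markers.

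**Figure D4:**
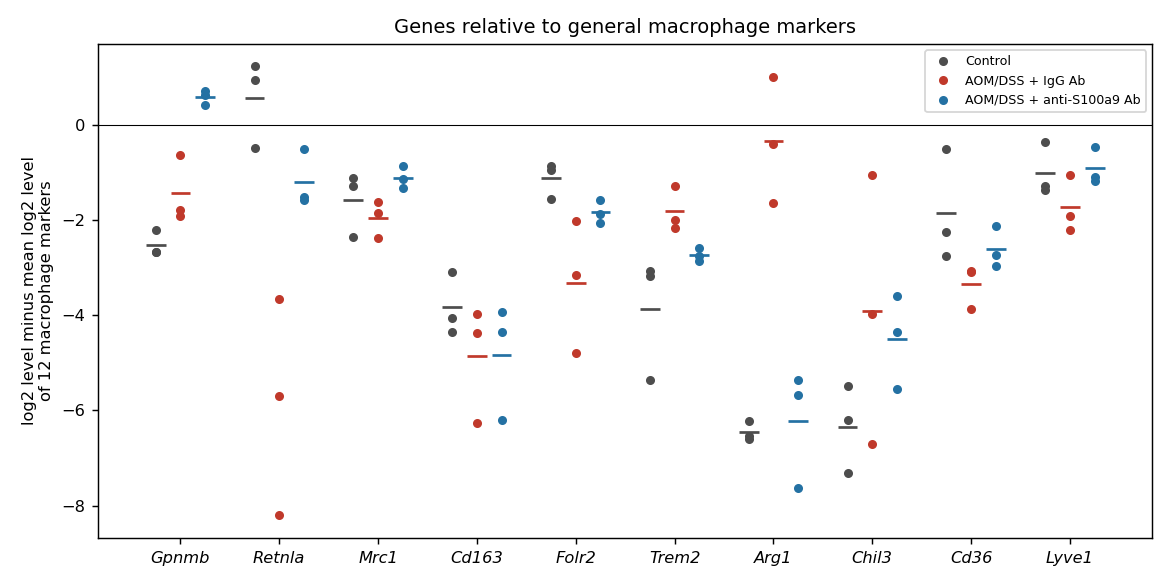
Log2(FPKM + 0.1) of each gene minus the mean of the 12 general macrophage markers in the same mouse; points are single mice and short lines are group means (n = 3), left out for Retnla in IgG Ab. Gpnmb is above the marker mean in the 3 anti-S100a9 Ab mice only.

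None of the 12 general macrophage markers was called in any comparison by limma, and 2, 2 and 1 of them had an unadjusted p under 0.05 in IgG Ab vs Control, anti-S100a9 Ab vs IgG Ab and anti-S100a9 Ab vs Control. Their median log2 fold changes were 0.06, 0.02 and 0.14, and at most 2 of them were called when each sample was left out in turn. Of 17 further genes of resident macrophages, Igf1, a growth factor, rose in IgG Ab vs Control (2.56, adjusted p = 0.000884) and fell with anti-S100a9 Ab vs IgG Ab (-1.97, adjusted p = 0.00385), as did Hmox1, which degrades heme (1.89, adjusted p = 0.0154, and -1.40, adjusted p = 0.0313). Sepp1, a selenium carrier, rose with anti-S100a9 Ab vs IgG Ab (1.79, adjusted p = 0.0234). By the same test, 8.18% of all genes rose and 3.01% fell in IgG Ab vs Control. For anti-S100a9 Ab vs IgG Ab these shares were 6.72% and 14.4%. When each sample was left out in turn, 1 to 6 and 1 to 7 of the 17 were called. The median of this list was -0.14, 0.39 and 0.26 in the 3 comparisons.

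Lipid-associated and lysosomal macrophage genes, the company in which Gpnmb is usually found, were called for 7 of 28 in IgG Ab vs Control, 6 higher and 1 lower. Of all genes, 8.18% rose and 3.01% fell in this comparison. Spp1, the secreted protein osteopontin, rose most (6.12, adjusted p = 0.000306), from 0.214 to 0.397 FPKM in Control to 17.9 to 51.8 FPKM, and was at 0.477 to 1.12 FPKM with anti-S100a9 Ab. The lysosomal protease Ctsd (1.19, adjusted p = 0.0286), the cholesterol exporter Abca1 (1.19, adjusted p = 0.0358), the cell fusion protein Dcstamp (1.89, adjusted p = 0.0163) and Tfe3 (0.59, adjusted p = 0.0321), a transcription factor of lysosomal genes, rose too, and the sterol receptor Nr1h3 fell (-0.86, adjusted p = 0.0426). With anti-S100a9 Ab vs IgG Ab, Spp1 (-5.01, adjusted p = 0.00120), Dcstamp, Ctsd and Tfe3 fell and the lysosomal lipase Lipa rose (0.47, adjusted p = 0.0475), 5 of 28 in all. That count was close to the share over all genes, of which 6.72% rose and 14.4% fell. Mitf, another factor that acts on lysosomal genes and on Gpnmb in other cells, was at 0.884 to 1.13 FPKM in Control, 0.610 to 0.955 FPKM with IgG Ab and 1.36 to 1.54 FPKM with anti-S100a9 Ab and was not called. Its difference in anti-S100a9 Ab vs IgG Ab, 0.76 (SE 0.24), had the direction of Gpnmb and narrowly missed the limma threshold (adjusted p = 0.0515). The first count was 2 to 5 without any 1 sample other than IgG Ab replicate 2, and 8 without that one. The second was 1 to 8, lowest without anti-S100a9 Ab replicate 1 or 2 and highest without Control replicate 3. Spp1, Ctsd, Dcstamp and Tfe3 were thus higher with IgG Ab than with anti-S100a9 Ab, the reverse of Gpnmb. The proton pump subunit Atp6v0d2, also of this list, rose in IgG Ab vs Control (1.59, adjusted p = 0.0366). Its mean was higher with anti-S100a9 Ab (2.01 FPKM) than with IgG Ab (0.975 FPKM), the direction of Gpnmb, but limma did not call that difference (adjusted p = 0.114).

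Genes of the interleukin-4 and interleukin-13 pathway were called for 2 of 11 in IgG Ab vs Control, the alarmin Il33 (1.63, adjusted p = 0.0278) and the receptor chain Il4ra (1.08, adjusted p = 0.0447), both higher. With anti-S100a9 Ab vs IgG Ab, the decoy receptor Il13ra2 (2.12, adjusted p = 0.0194), the transcription factor Irf4 (2.02, adjusted p = 0.0358) and the kinase Jak1 (0.54, adjusted p = 0.0486) rose and Il33 fell (-1.49, adjusted p = 0.0275). Over all genes, 8.18% rose and 3.01% fell in the first comparison, and 6.72% rose and 14.4% fell in the second. The first count was 0 without Control replicate 1 or 2, and the second was 0 without anti-S100a9 Ab replicate 2 or 3. Il4 and Il13 themselves peaked at 0.178 and 0.147 FPKM over the 9 samples, which with Il25 was too low to test. Of 11 other alternative activation genes, limma called none in any comparison, and 3, 0 and 0 had an unadjusted p under 0.05. The lectins Mgl2 and Clec10a in this list were at 0.234 to 4.58 FPKM and 0.239 to 4.06 FPKM over all samples. Stat6 was between 26.8 and 35.1 FPKM in all samples. Irf4 was at 1.05, 4.23 and 0.785 FPKM in IgG Ab and 5.76, 8.67 and 5.63 FPKM with anti-S100a9 Ab. The mean log2 level of 6 B and plasma cell markers was 3.95, 6.82 and 4.14 in the same IgG Ab samples. With anti-S100a9 Ab it was 6.74, 6.56 and 6.57. The part of B and plasma cell RNA in the Irf4 difference was not tested.

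Classical activation genes, a list named for inflammatory macrophages, were called for 6 of 16 in IgG Ab vs Control. All 6 were higher, where 8.18% of all genes rose. Il23a (4.73, adjusted p = 0.00189), the nitric oxide synthase Nos2 (3.09, adjusted p = 0.0242), Tnf (2.59, adjusted p = 0.0358) and the feedback inhibitor Socs3 (2.32, adjusted p = 0.00124) led, with Il1b and Il6. With anti-S100a9 Ab vs IgG Ab, where 14.4% of all genes fell, 4 of 16 fell, Il23a (-4.46, adjusted p = 0.00374), Socs3 (-1.84, adjusted p = 0.00446), Il6 and Il1b. These counts were 2 to 5 and 2 to 5 when each sample was left out in turn, and the first was lowest without Control replicate 2. Which cells of the bulk tissue made the RNA of these genes was not tested. Nos2 and Arg1, which compete for arginine, thus both rose in IgG Ab vs Control. The study itself lists Il23a, Il6, Il1b, Tnf and Nos2 among the genes raised by AOM/DSS and lowered by anti-S100a9 Ab in these data. Tnf and Nos2 were not among the genes called lower here. The study's list also holds Spp1 and Igf1, so the limma calls of all these genes are no independent support for it.

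Among 11 arginine and polyamine enzymes, Oat, which uses ornithine, fell in IgG Ab vs Control (-0.66, adjusted p = 0.0195), and Asl (-0.97, adjusted p = 0.0216) and Srm (-0.73, adjusted p = 0.0379), which make arginine and spermidine, fell with anti-S100a9 Ab vs IgG Ab. Arg2, the mitochondrial arginase, was at 2.43 to 4.78 FPKM in Control, 3.32 to 13.6 FPKM in IgG Ab and 2.36 to 3.85 FPKM with anti-S100a9 Ab and was not called. The calls were 1 and 2 of the 11 genes, near the shares over all genes. Those shares were 8.18% higher and 3.01% lower in the first comparison, and 6.72% higher and 14.4% lower in the second. When each sample was left out in turn, the counts were 0 to 2 and 0 to 3.

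Near relatives of the 10 genes were followed as well. Retnlg, a Retnla relative of the granulocyte lineage, was at 0.0936, 1.86 and 1.34 FPKM in Control, 5.38, 34.0 and 75.6 FPKM in IgG Ab and 1.18, 1.21 and 0.816 FPKM with anti-S100a9 Ab. It rose by 4.89 in IgG Ab vs Control (adjusted p = 0.0220) and fell with anti-S100a9 Ab vs IgG Ab (-4.39, adjusted p = 0.0238). Retnlg was thus highest in IgG Ab, where Retnla was lowest, while its Control and anti-S100a9 Ab values overlapped, unlike those of Retnla. Retnlb, made by goblet cells, ranged from 137 to 2479 FPKM and was not called. Retn, the adipocyte hormone resistin, fell in IgG Ab vs Control (-2.71, adjusted p = 0.0279) from a Control range of 0.433 to 2.73 FPKM. Trem1, a receptor of neutrophils and monocytes, rose in IgG Ab vs Control and fell with anti-S100a9 Ab vs IgG Ab (3.06, adjusted p = 0.00212, and -2.40, adjusted p = 0.00711), as did the hyaluronan receptor Cd44 (1.36, adjusted p = 0.0107, and -0.83, adjusted p = 0.0414) and the scavenger receptor Cd163l1 (2.46, adjusted p = 0.0140, and -1.65, adjusted p = 0.0391), while Mrc2 rose in IgG Ab vs Control (1.09, adjusted p = 0.0314). In all 6 and 4 of 16 relatives were called, with 3 to 6 and 1 to 5 when each sample was left out in turn. Over all genes, 8.18% rose and 3.01% fell in IgG Ab vs Control, and 6.72% rose and 14.4% fell in anti-S100a9 Ab vs IgG Ab. Pmel, the melanosome relative of Gpnmb, was at 0.499 to 2.36 FPKM and was not called.

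Markers of other cell types, several of which express these genes, were checked beside them. The defining melanocyte genes Tyr and Tyrp1 were listed at 0 in all samples but 1 for Tyr (0.00631 FPKM) and the summed melanocyte markers were 1.42 to 3.30 FPKM. Sox10, which enteric glia also express, was 1 of 2 melanocyte list genes high enough to test and rose with anti-S100a9 Ab vs IgG Ab (1.63, adjusted p = 0.0291). The eosinophil peroxidase Epx was listed at 0 in all 9 samples, and limma called none of 9 eosinophil and mast cell genes, of which 1, 3 and 0 had an unadjusted p under 0.05 in the 3 comparisons. Among 6 lymphatic endothelial markers, Mmrn1 (1.56, adjusted p = 0.0193) and Reln (1.29, adjusted p = 0.0438) rose with anti-S100a9 Ab vs IgG Ab, the direction of the Lyve1 values, while Prox1, which tumor epithelium also expresses, rose in IgG Ab vs Control (4.61, adjusted p = 0.00512) and fell with anti-S100a9 Ab vs IgG Ab (-3.36, adjusted p = 0.0157). The sums of the lymphatic list were 186 to 452 FPKM in Control, 155 to 231 with IgG Ab and 172 to 340 with anti-S100a9 Ab. Ccl21a weighed most in them, with means of 273, 139 and 258 FPKM in these groups, and Prox1 was at 66.1 FPKM in IgG Ab replicate 1. The part of the lymphatic markers in the Lyve1 values was not tested. Of 8 blood endothelial markers, Gpihbp1 rose (1.65, adjusted p = 0.0351) and fell (-1.72, adjusted p = 0.0231) in the same 2 comparisons. Of 9 neutrophil markers tested, 5 rose in IgG Ab vs Control and 4 fell with anti-S100a9 Ab vs IgG Ab, against 8.18% and 14.4% of all genes. Myh11 was the only called gene of 6 smooth muscle markers, higher with anti-S100a9 Ab vs IgG Ab (2.01, adjusted p = 0.0331). Limma called none of 6 epithelial markers and none of 6 B and plasma cell markers, of which 1, 1 and 0 and 0, 2 and 0 had an unadjusted p under 0.05. In anti-S100a9 Ab vs Control limma called no gene of any list, and 0 to 7 genes per list had an unadjusted p under 0.05, most among the adipocyte markers. With each sample left out in turn, the count in anti-S100a9 Ab vs IgG Ab was 0 (without anti-S100a9 Ab replicate 2) to 4 (without IgG Ab replicate 3) for lymphatic endothelial markers. It was 0 to 6 for smooth muscle markers, with 6 without IgG Ab replicate 3, and 0 to 4 for B and plasma cell markers, with 4 without IgG Ab replicate 2.

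The genes closest in profile to Gpnmb were found by the root mean square difference of log2 values over the 9 samples, each centred on its mean, among 13073 genes with a group mean of at least 1 FPKM. Atp6v0d2, a subunit of the proton pump that acidifies lysosomes of macrophages and osteoclasts, was closest, with a difference of 0.61 where Gpnmb itself varied by 1.40 around its mean. It was at 0.334, 0.183 and 0.228 FPKM in Control, 1.33, 0.596 and 0.995 FPKM in IgG Ab and 1.20, 1.82 and 3.03 FPKM in anti-S100a9 Ab. Its AOM/DSS groups overlapped, unlike those of Gpnmb, and it rose in IgG Ab vs Control (1.59, adjusted p = 0.0366). Klra8, a natural killer cell receptor (0.66), the membrane protein Amn (0.80), the sulfate transporter Slc13a1 (0.83) and Mpeg1, a pore-forming protein of macrophages (0.86), followed. Mpeg1 was at 14.2 to 27.5 FPKM in Control, 17.4 to 29.6 FPKM with IgG Ab and 47.4 to 58.4 FPKM with anti-S100a9 Ab. Of the other 9 genes followed here, Mrc1 was closest to Gpnmb, at a difference of 1.28 and rank 2011.

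Closest to Retnla were Car4, the carbonic anhydrase of surface colonocytes (1.33), Rims4 (1.39), the urea cycle enzyme Otc (1.44), the methyltransferase Inmt (1.49) and Slc26a3, the chloride exchanger of colonocytes (1.49), where Retnla varied by 3.00 around its mean. Car4 was at 318, 490 and 334 FPKM in Control, 1.37, 55.4 and 13.9 FPKM in IgG Ab and 170, 278 and 330 FPKM in anti-S100a9 Ab. Its anti-S100a9 Ab values reached into the Control range, whereas those of Retnla stayed below it. None of the 5 is known as a macrophage marker, and the macrophage gene closest among the other 9 was Folr2, at 2.10 and rank 89. These genes were picked by likeness, so their profiles are a description and no test of shared origin.

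**Figure D5:**
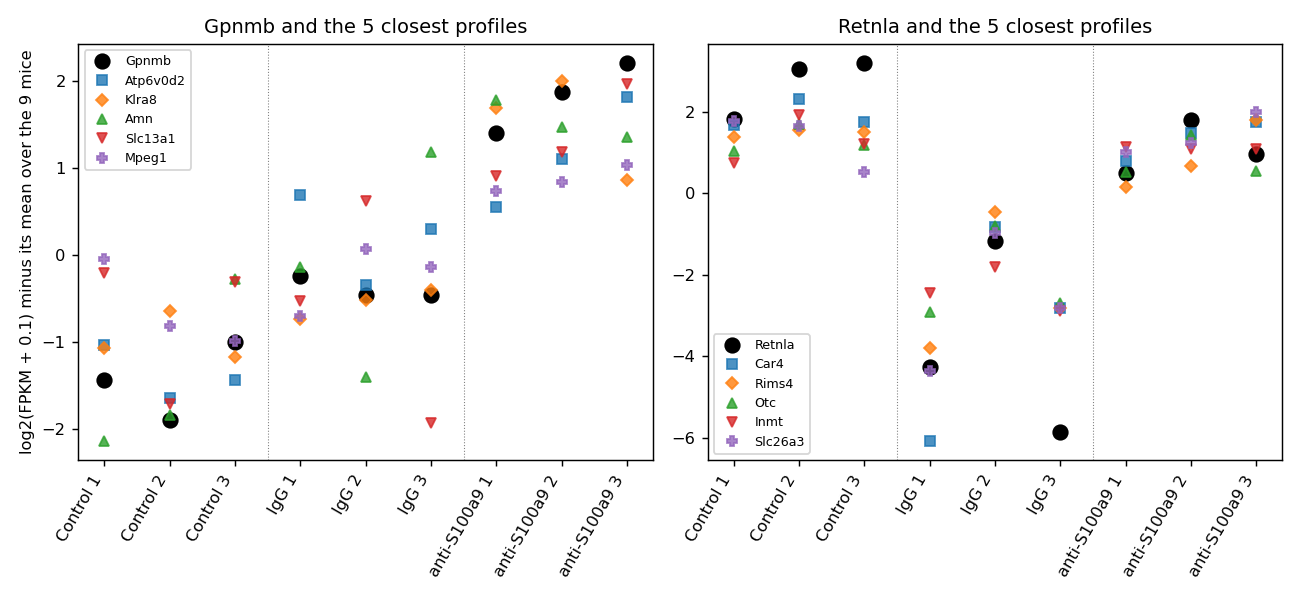
Gpnmb (left) and Retnla (right) in black with the 5 genes of the closest profile. Each point is 1 mouse, as log2(FPKM + 0.1) minus the gene's mean over the 9 mice, and mice within a group have no order. Gpnmb rises in steps over the groups, and all 6 genes of the Retnla panel are lowest in the 3 IgG Ab mice.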

How the data were processed

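Colon RNA-seq of 9 mice was used, 3 per group, with groups and replicate numbers from the sample titles. The authors deposited 1 file per mouse with decimal values read here as FPKM, since no source used here states the unit, for 21544 rows with a gene symbol each. Per the labels, the submitters' processing notes name GRCm38, TopHat, Cufflinks, HTSeq and DESeq, without versions or roles, and RNA was extracted with the mirVana kit. FPKM values do not allow the count test of DESeq, which was not repeated. Repeated symbols (46 rows) were summed, which left 21498 symbols.

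Genes that reached 0.1 FPKM in 3 or more samples (15278) were analyzed as log2(FPKM + 0.1), which understates fold changes of low genes, by limma 3.58.1 under R 4.3.3 (all 9 samples in 1 linear model, intensity trend, 8.87 degrees of freedom) and Benjamini-Hochberg adjusted p over all genes tested. On simulated data, 87.5% of 200 genes given a log2 difference of 3 were recovered for IgG Ab vs Control over 15278 genes, with 10 false calls. The members and the 17 gene lists were chosen with earlier results of these data known. Named genes were the 10 members, up to 4 called genes per list and comparison by size (2 abundant genes where none was called), near relatives and the 5 closest profiles of Gpnmb and Retnla. Genes outside these, such as Mitf, Stat6, Arg2, Tyr, Epx, Ly6g and Pnpla2, were named after their values were seen. In the list of resident genes, selenoprotein P is listed as Sepp1. No files held the same values. No protein sequence was used here. Tables and figures were made in Python 3.11.15 (numpy 2.4.6, pandas 2.3.3, matplotlib 3.10.9).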

Additional observations from a re-analysis of the deposited data

How the results depend on the processing

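The alternatives were the replicate block, a fit of the 2 compared groups alone, pseudocounts of 0.01 and 1, no filter or a filter of 1 FPKM, median-of-ratios scaling, quantile normalization, no intensity trend, the study's threshold and leaving out each sample. Of 570 fold changes of the 10 genes under them, 551 kept their direction and their side of the threshold (for Gpnmb and Retnla, stayed within the spread between replicates), 8 passed the threshold in addition, 6 moved by more than the spread (all Retnla) and 5 changed sign. The sign changes were Mrc1 in IgG Ab vs Control without IgG Ab replicate 1 (0.15, adjusted p = 0.817, range over the alternatives 0.299 to 0.876; fold changes with a sample left out -0.75 to 0.15), and, in anti-S100a9 Ab vs IgG Ab, Cd163 without IgG Ab replicate 1 (-0.79, adjusted p = 0.333) or anti-S100a9 Ab replicate 2 (-0.23, adjusted p = 0.884; range 0.333 to 0.996, fold changes -0.79 to 0.87) and Chil3 without IgG Ab replicate 3 (1.17, adjusted p = 0.519) or anti-S100a9 Ab replicate 1 (0.26, adjusted p = 0.928; range 0.181 to 0.982, fold changes -2.12 to 1.17). None of these passed the threshold with all samples. In IgG Ab vs Control, 1 of the 8 tested genes was called, 4 with the study's threshold, and 1 to 2 when each sample was left out (2 without Control replicate 3 or IgG Ab replicate 2). In anti-S100a9 Ab vs IgG Ab the count was 1 to 2 when each sample was left out (2 without IgG Ab replicate 2 or 3), and in anti-S100a9 Ab vs Control it was 0 under every alternative run.

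Samples share replicate numbers across groups, but the labels give no pairing, so the numbers were not taken as pairs. Of 9 pairs of same-numbered samples 5 had a correlation of their deviations over 0.1 (range -0.187 to 0.249). No values of differently numbered pairs are given beside these, so they do not decide whether equal numbers are linked. With the replicate block, 2 of the 8 genes were called in IgG Ab vs Control, Arg1 and Trem2 (adjusted p = 0.0115), and 5 of the 9 samples correlated best with their own number.

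Over all genes, IgG Ab vs Control called 1250 higher and 460 lower, 518 and 109 when only these groups were fitted, 986 and 529 with median-of-ratios scaling and 947 and 631 with quantile normalization. For anti-S100a9 Ab vs IgG Ab the split was 1026 and 2193, and 1197 and 1697 or 1389 and 1706 with these scalings. They moved the median log2 fold change of all genes in the first comparison from 0.09 to -0.01 and -0.03. Counts called in the gene lists, including those with a sample left out (chosen after seeing the data), stayed within 1.5 times in 461 of 612 cases, were lower in 107 and higher in 44. Depth in fragments is unknown, so low values such as those of Arg1 in Control carry an unknown counting error.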
